A study of Mus musculus with 6 samples.

Results

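Rnf10 and 9 genes of ribosome quality control were followed in mouse liver: Usp10, Zfp598, Rack1, Ascc2, Ascc3, Pelo, Hbs1l, Nemf and Ltn1. They were taken by symbol as the siRNA target, the deubiquitinase that counteracts it, and factors that sense or rescue stalled ribosomes. These 10 genes are among 55487 in the count table, and all 10 belonged to the 14046 tested genes left after removal of low counts. The livers came from 6 male wild-type C57BL/6J mice kept on normal chow and collected at 17 weeks of age. Of these, 3 received GalNAc-siNC, a control siRNA, and 3 received GalNAc-siRnf10, an siRNA against Rnf10, both by subcutaneous injection. GalNAc (N-acetylgalactosamine) binds the asialoglycoprotein receptor and so carries the siRNA to hepatocytes, while RNA was taken from whole liver, where fewer cells of a type and less RNA per cell cannot be told apart. A single siRNA was used against Rnf10, and the labels do not list the injection times.

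When a ribosome stalls on an mRNA, the ribosome behind it collides with it, and the pair is recognized by sensors that attach ubiquitin to proteins of the small (40S) subunit. The collided ribosomes are then pulled apart, the subunits are recycled, and the unfinished chain on the large (60S) subunit is marked for degradation. RNF10 is a RING-type E3 ubiquitin ligase that attaches ubiquitin to the 40S proteins RPS2 and RPS3, and USP10 is a deubiquitinase that removes it.

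The libraries held between 26854377 and 33058645 counts, and all came from 1 batch by their labels. Hepatocyte markers (Alb, Apoa1, Ttr, Cyp2e1, Asgr1, Asgr2, Tat and Cps1) summed to between 57429 and 61093 CPM in the GalNAc-siNC livers. CPM is the count of a gene scaled by the size of its library after TMM normalization. One library stood apart by raw counts. GalNAc-siNC mouse 1 differed from mice 2 and 3 of its group by 27.8 and 27.1 in chi-square per gene, while mice 2 and 3 differed by 9.53 and the GalNAc-siRnf10 mice by 4.45 to 5.07. On the log2 scale it stood out less. The median absolute deviation of a gene from its group mean was 0.110, 0.098 and 0.083 in GalNAc-siNC mice 1, 2 and 3. It was 0.062 to 0.064 in the GalNAc-siRnf10 mice. A log2 fold change of a gene, or log2 difference of a ratio, may turn direction or move by over 1.5 times without GalNAc-siNC mouse 1. In such cases the value without that mouse is given beside the main result. Gcn1, named below, and medians over several genes are given with all mice only, so their dependence on that mouse is not shown.

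The 2 members that passed the test, Rnf10 and Hbs1l, are shown here by the 250 bases before their annotated start, from RefSeq on GRCm38.p6. They were picked by that test result, and a link between these sequences and the mRNA values was not tested. Both sequences run 5′ to 3′ in the direction of transcription, with capitals marking matches to the motifs searched. The Rnf10 sequence lies at chr5:115272896-115273145 on the minus strand and the Hbs1l sequence at chr10:21295729-21295978 on the plus strand.
Rnf10: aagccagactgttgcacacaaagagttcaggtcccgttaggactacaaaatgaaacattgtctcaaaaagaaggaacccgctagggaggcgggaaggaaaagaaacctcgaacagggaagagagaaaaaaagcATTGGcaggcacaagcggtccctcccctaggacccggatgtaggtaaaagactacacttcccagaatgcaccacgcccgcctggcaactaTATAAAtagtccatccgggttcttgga
Hbs1l: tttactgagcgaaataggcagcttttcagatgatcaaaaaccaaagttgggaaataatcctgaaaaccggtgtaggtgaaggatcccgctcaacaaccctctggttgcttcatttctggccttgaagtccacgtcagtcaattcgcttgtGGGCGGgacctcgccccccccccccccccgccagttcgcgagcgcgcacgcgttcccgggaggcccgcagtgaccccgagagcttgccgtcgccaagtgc

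All 10 members had a RefSeq entry. Of the 7 motifs searched on both strands, the Rnf10 sequence held TATAAA, starting 27 bases before the start, and CCAAT, read on the other strand 117 bases before it. TATAAA was found in 1 of the 10 members and in 12.4% of all 32851 promoters of this length. The Hbs1l sequence held GGGCGG 100 bases before its start, as did 4 of the 10 members and 32.7% of all promoters. CCAAT stood in 3 members and in 33.9% of all promoters. The cAMP response element (TGACGTCA) was in 1.55% of all promoters, an ETS factor motif (CCGGAAG) in 6.91%, the YY1 core (AAGATGG) in 4.49% and the C/EBP-ATF element (TGATGNAA) in 3.45%, and none of these 4 was in the windows of the 10 members. The Hbs1l window held 19 CG pairs and the Rnf10 window 9, against a median of 6 over all promoters. These matches describe the letters only. The motif search did not use the counts.

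Rnf10 mRNA was lower in every GalNAc-siRnf10 liver. Rnf10 (ENSMUSG00000041740, chr5:115241412-115272898, minus strand) was at 130, 153 and 136 CPM in GalNAc-siNC mice 1, 2 and 3. It was at 58.6, 61.4 and 60.4 in GalNAc-siRnf10 mice 1, 2 and 3. The groups lay far apart, and the 3 treated mice differed among themselves less than the controls did. The mean fell from 140 ± 11.7 to 60.1 ± 1.41 (SD, n = 3 each), which left 43.0% of the control level. The log2 fold change was -1.22 (SE 0.0715, 95% interval -1.37 to -1.07), with an adjusted p of 3.29e-09 by edgeR's quasi-likelihood test. A gene was called where this p, adjusted over all tested genes, was under 0.05. Behind these values stood 4089 to 4444 counts per control library and 1538 to 1904 per treated library. Rnf10 was not the gene that fell most: 52 of the genes called had a lower log2 fold change, and 25 tested genes had a smaller p. No annotated exon of another gene overlapped its exons. The count per gene adds up all 11 annotated transcripts, of which 3 are coding.

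Besides Rnf10, Hbs1l was the member that passed the test. The test called 2 of the 10 members, 1 lower and 1 higher, or 20%, while it called 14.0% of all tested genes (7.28% lower and 6.71% higher), so the count among the members was near that background. The member called lower is Rnf10, the siRNA target, whose fall was the aim of the treatment. In 5 of 10 members, Rnf10 among them, the values of the groups did not overlap, against 32.8% of all tested genes. The exact permutation test gives 0.1 for each such member, the smallest p that 3 mice against 3 allow. The median log2 fold change of the members was 0.049 and that of all tested genes 0.0022. Their median absolute log2 fold change was 0.13, and that of all tested genes 0.18.

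**Figure D1:**
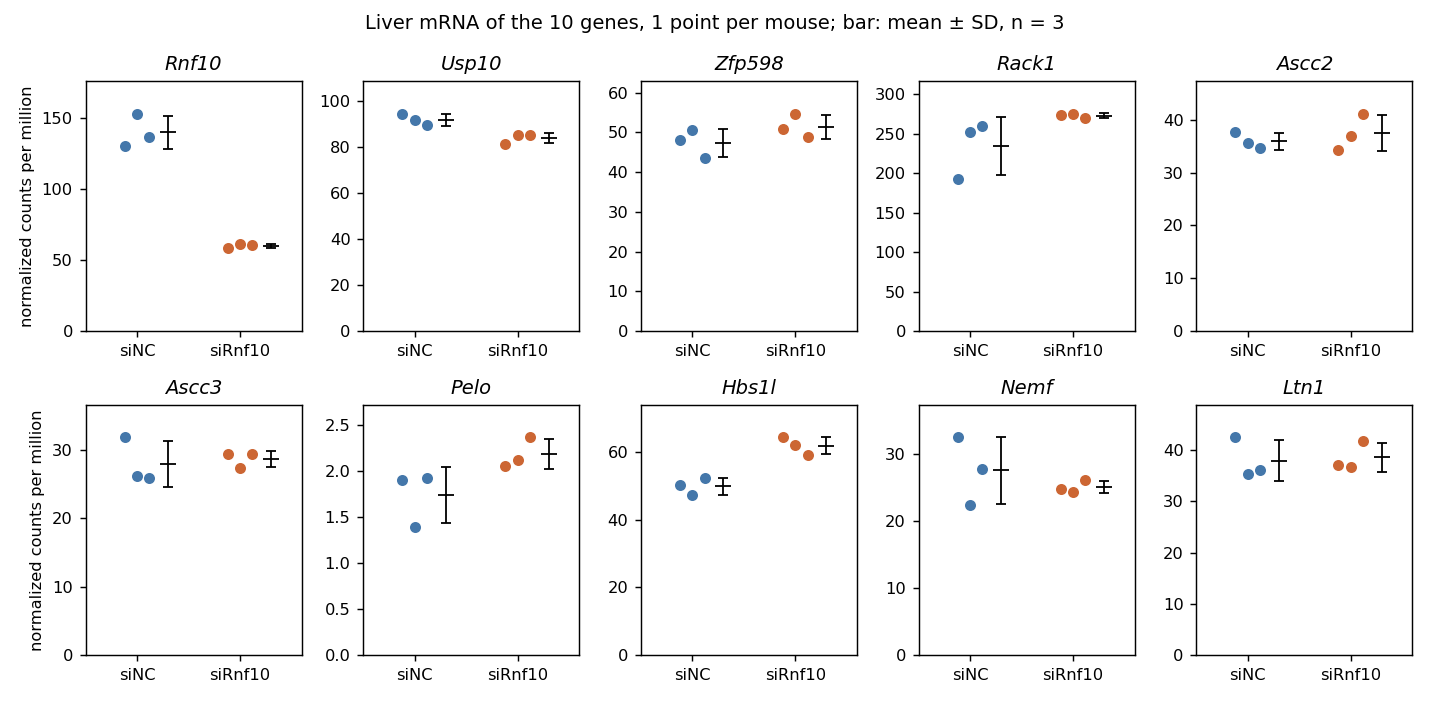
Normalized CPM (y axis, from 0) of the 10 genes in each of the 3 GalNAc-siNC and 3 GalNAc-siRnf10 livers, with 1 point per mouse and bars for the mean ± SD. Rnf10 lies between 58.6 and 61.4 in the treated mice and at 130 or above in the controls, Hbs1l is the other gene that passed the test, and the lowest Rack1 point is GalNAc-siNC mouse 1.

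Usp10 (chr8:119910360-119957560, plus strand), the deubiquitinase that acts against RNF10, was at 94.3, 91.6 and 89.2 CPM in the GalNAc-siNC mice and at 81.1, 85.2 and 84.9 in the GalNAc-siRnf10 mice. Every treated mouse lay below every control, but the gap was small. The difference was -0.13 on the log2 scale (SE 0.0638, 95% interval -0.27 to 0.0035), which did not pass the test (edgeR adjusted p = 0.200). With offsets for GC content and gene length the log2 fold change was -0.020. Relative to Usp10, counts of Rnf10 per kilobase of gene model were 1.75, 2.11 and 1.93 within the control mice and 0.914, 0.911 and 0.901 within the treated mice. The more abundant of the pair per length was thus Rnf10 in each control and Usp10 in each treated mouse. The log2 difference of this ratio was -1.08 (exact permutation p = 0.1, the smallest possible, and 0.4 adjusted over the 4 ratios tested).

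The sensors of collided ribosomes, Zfp598 and Rack1, had higher means with GalNAc-siRnf10, and neither passed the test. Zfp598 (chr17:24669687-24682016, plus strand) encodes the E3 ligase that marks 40S proteins of collided ribosomes with ubiquitin. It was at 48.1, 50.5 and 43.5 CPM in the controls and at 50.9, 54.7 and 48.7 in the treated mice, and these ranges overlapped. Its log2 fold change was 0.12 (SE 0.0784, 95% interval -0.046 to 0.28, edgeR adjusted p = 0.361). With offsets for GC content and length it was 0.24 and passed (edgeR adjusted p = 0.0266), so its call depends on that correction. It was 0.058 without GalNAc-siNC mouse 3 and 0.072 without GalNAc-siRnf10 mouse 2.

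Rack1 (chr11:48800332-48806434, plus strand) encodes a 40S scaffold protein that lies where collided ribosomes touch. It was at 193, 252 and 259 CPM in the controls and at 274, 276 and 270 in the treated mice. The groups did not overlap, but GalNAc-siNC mouse 1 lay well below the other controls. On the log2 scale Rack1 differed by 0.22 (SE 0.0971, 95% interval 0.0013 to 0.43, edgeR adjusted p = 0.185). Without GalNAc-siNC mouse 1 it was 0.093 (edgeR adjusted p = 0.162). With no filter on low counts it was 0.21 and passed (edgeR adjusted p = 0.0143). Its exons share 31 bases with Trim41 on the opposite strand.

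Ascc2 and Ascc3 encode subunits of the complex that disassembles collided ribosomes, the latter being its helicase. Ascc2 (chr11:4637747-4685699, plus strand) was at 37.7, 35.6 and 34.6 CPM in the controls and at 34.3, 37.0 and 41.1 in the treated mice, with the treated mice on both sides of the controls. Its log2 fold change was 0.060 (95% interval -0.12 to 0.24, edgeR adjusted p = 0.697), 0.095 without GalNAc-siNC mouse 1 and -0.012 without GalNAc-siRnf10 mouse 3. Ascc3 (chr10:50592669-50851485, plus strand) was at 31.8, 26.1 and 25.9 in the controls and at 29.4, 27.4 and 29.4 in the treated mice. GalNAc-siNC mouse 1 was the highest of all 6 mice for Ascc3. Its log2 fold change was 0.037 (95% interval -0.16 to 0.23, edgeR adjusted p = 0.844), and 0.14 without that mouse (edgeR adjusted p = 0.262). Without GalNAc-siNC mouse 2 or 3 it was -0.011 or -0.020. The ratio of Ascc2 to Ascc3 per kilobase was 4.35 ± 0.322 in the controls and 4.39 ± 0.410 in the treated mice (SD, n = 3 each, exact permutation p = 0.9, adjusted 0.9). The log2 difference of this ratio was 0.013, and -0.050 without GalNAc-siNC mouse 1.

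Hbs1l, the GTPase that works with PELO to free ribosomes stalled at the end of an mRNA, rose with GalNAc-siRnf10. Hbs1l (ENSMUSG00000019977, chr10:21295979-21368898, plus strand) was at 50.4, 47.2 and 52.2 CPM in the GalNAc-siNC mice and at 64.4, 62.2 and 59.3 in the GalNAc-siRnf10 mice. The lowest treated mouse lay above the highest control. The mean went from 49.9 ± 2.52 to 62.0 ± 2.55 (SD, n = 3 each), which is 24.1% higher. The log2 fold change was 0.31 (SE 0.0715, 95% interval 0.16 to 0.46, edgeR adjusted p = 0.00702). Of the 943 genes called higher, 714 had a larger log2 fold change. Leaving out GalNAc-siRnf10 mouse 1 ended the call (log2 fold change 0.28, edgeR adjusted p = 0.0716), while leaving out GalNAc-siNC mouse 1 did not (0.32, edgeR adjusted p = 4.59e-04). Each library held 1359 to 1930 counts of this gene.

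The count of Hbs1l has limits of its own. Another annotated gene, Gm9923, shares 420 bases at 100% identity with a Hbs1l transcript and held 58 to 114 counts per library. An opposite-strand gene, 4930455C13Rik, overlaps 266 bases of its exons and held 0 to 7 counts. The gene has 10 annotated transcripts, 6 of them coding. A short form of this gene is known to act with the SKI complex in mRNA decay, and counts per gene cannot tell the forms apart.

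Summed markers of hepatocytes and of some other cell types also differed between the groups. For comparison, edgeR called 6.71% of all tested genes higher and 7.28% lower. The summed hepatocyte markers ranged from 57429 to 61093 CPM in the controls and from 86036 to 88910 in the treated mice, with 5 of 8 called higher (Alb, Ttr, Cyp2e1, Tat and Cps1). Endothelial markers went from a range of 63.4 to 64.9 to one of 68.7 to 71.3, with 2 of 6 called higher, and stellate cell markers from 114 to 115 to 134 to 137, with 3 of 6 called higher. Cholangiocyte markers ranged from 68.5 to 69.9 in the controls and from 37.8 to 38.9 in the treated mice, with 1 of 5, Spp1, called lower. Kupffer cell markers ranged from 170 to 196 and from 179 to 190, and none of 6 was called by edgeR. Erythroid markers ranged from 259 to 334 and from 294 to 325, lymphocyte markers from 5.26 to 7.63 and from 5.99 to 7.90, and neutrophil markers from 3.08 to 4.30 and from 2.00 to 2.06, with S100a9 called lower (2 of the 5 lymphocyte and 2 of the 5 neutrophil markers passed the filter). No marker was at 0 in all libraries. The part of these shifts in the Hbs1l and Rnf10 values was not tested.

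Pelo (chr13:115088355-115090186, minus strand), the rescue factor that enters the empty site of a stalled ribosome and the partner of HBS1L, was the scarcest of the 10 genes, with 40 to 66 counts per library. It was at 1.91, 1.39 and 1.93 CPM in the controls and at 2.06, 2.13 and 2.37 in the treated mice. The groups did not overlap. Its log2 fold change was 0.32, with a 95% interval from -0.16 to 0.80 (SE 0.226, edgeR adjusted p = 0.397), so a change was not detectable at this depth, and it was 0.18 without GalNAc-siNC mouse 2. These counts are uncertain, since 739 of the 1600 exonic bases of Pelo, or 46.2%, also belong to the readthrough gene Gm49395 on the same strand, which held 51 to 87 counts, and 468 bases to the antisense gene Gm10734. With the counts of Pelo and Gm49395 summed, an alternative chosen after seeing the data, the log2 fold change was 0.20 (edgeR adjusted p = 0.506). The ratio of Pelo to Hbs1l per kilobase was 0.131 ± 0.0175 in the controls and 0.134 ± 0.0156 in the treated mice (SD, n = 3 each, exact permutation p = 0.9, adjusted 0.9). The log2 difference of this ratio was 0.028, and 0.094 without GalNAc-siNC mouse 1.

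Nemf and Ltn1 act on the 60S subunit once the ribosome has been split, NEMF by holding the blocked subunit and LTN1 as the E3 ligase that marks the unfinished chain. Nemf (chr12:69310522-69357165, minus strand) was at 32.4, 22.4 and 27.7 CPM in the controls and at 24.8, 24.3 and 26.1 in the treated mice. The controls spanned the whole range of the treated mice, with GalNAc-siNC mouse 1 the highest. For Nemf the log2 fold change was -0.14 (95% interval -0.38 to 0.10, edgeR adjusted p = 0.477). It was -0.0029 without that mouse and -0.27 (edgeR adjusted p = 0.0792) without GalNAc-siNC mouse 2. Ltn1 (chr16:87376651-87432612, minus strand) was at 42.5, 35.3 and 36.1 in the controls and at 37.1, 36.8 and 41.9 in the treated mice, with overlapping ranges. Its log2 fold change was 0.022 (95% interval -0.16 to 0.21, edgeR adjusted p = 0.906), 0.11 without GalNAc-siNC mouse 1 and -0.041 without GalNAc-siRnf10 mouse 3. The ratio of Nemf to Ltn1 per kilobase was 0.536 ± 0.0566 in the controls and 0.483 ± 0.0180 in the treated mice (SD, n = 3 each, exact permutation p = 0.3, adjusted 0.6). Nemf shares 166 exonic bases with Klhdc2 on the opposite strand, which held 799 to 1043 counts.

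**Figure D2:**
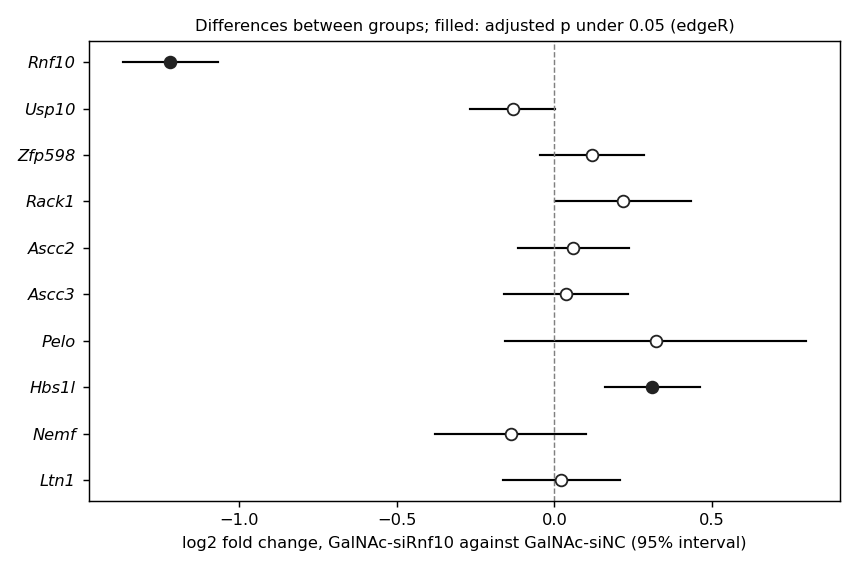
Log2 fold change of each gene, GalNAc-siRnf10 against GalNAc-siNC (x axis), with its 95% interval from edgeR and filled points where the adjusted p was under 0.05. Rnf10 stands at -1.22, Hbs1l at 0.31 is the other filled point, and Pelo has the widest interval, from -0.16 to 0.80.

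**Figure D3:**
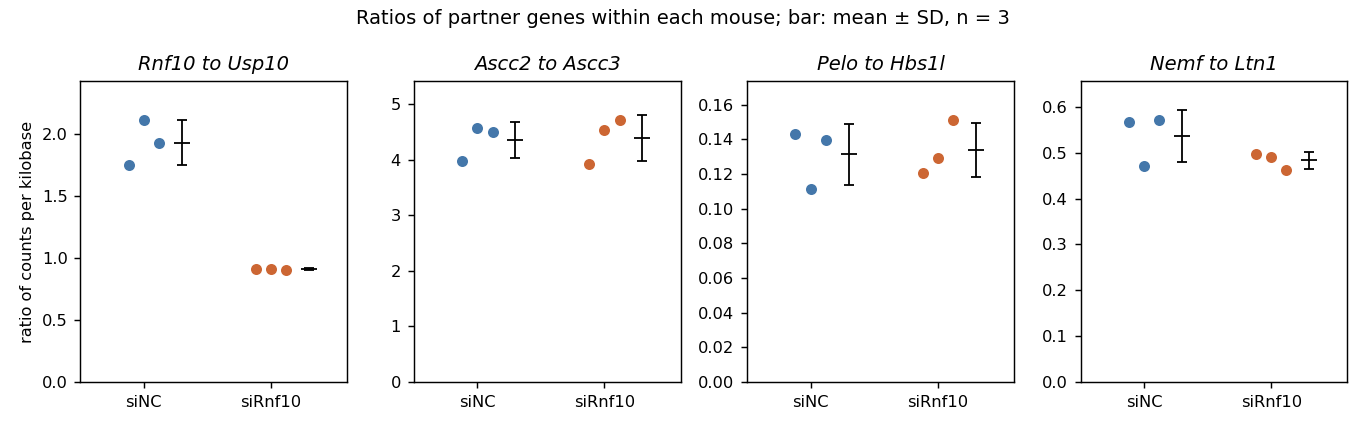
Ratios of partner genes per kilobase of gene model within each liver (y axes, from 0), with 1 point per mouse and bars for the mean ± SD of 3 mice. Rnf10 to Usp10 is between 1.75 and 2.11 in the controls and between 0.901 and 0.914 in the treated mice, while the groups overlap for the other 3 ratios.

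Per length, Rack1 was the most abundant of the 10 mRNAs and Pelo the least. In CPM per kilobase of gene model, the GalNAc-siNC order was Rack1 at 45.9 ± 7.11, Rnf10 at 18.5 ± 1.55, Zfp598 at 12.2 ± 0.914, Usp10 at 9.59 ± 0.268, Hbs1l at 8.25 ± 0.416 and Ascc2 at 7.24 ± 0.319. Then followed Ltn1 at 4.84 ± 0.503, Nemf at 2.61 ± 0.478, Ascc3 at 1.68 ± 0.202 and Pelo at 1.09 ± 0.191 (SD, n = 3 each). The ranges of neighbors in this order did not overlap. In the GalNAc-siRnf10 livers Rnf10 stood at 7.96 ± 0.187, in place 5 and no longer in place 2, where its range overlapped that of Ascc2 at 7.55 ± 0.692. Hbs1l moved up to 10.2 ± 0.422, above Usp10 at 8.76 ± 0.240. Rnf10 made up 16.5% ± 0.869 of the summed level of the 10 genes in the controls and 7.14% ± 0.103 in the treated mice (SD, n = 3 each).

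The order rests in part on the length used. Divided by the length of the principal coding transcript, an alternative chosen after seeing the data, Rnf10 stayed in place 2 in the controls at 44.9 ± 3.75 and came in place 4 in the treated mice at 19.3 ± 0.453. Usp10 then stood above Hbs1l and Zfp598 in the controls, and the ranges of Zfp598 and Ascc2 overlapped in both groups, as did those of Nemf and Ltn1. In the treated mice Hbs1l at 22.7 ± 0.934 and Usp10 at 22.5 ± 0.616 overlapped (SD, n = 3 each).

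**Figure D4:**
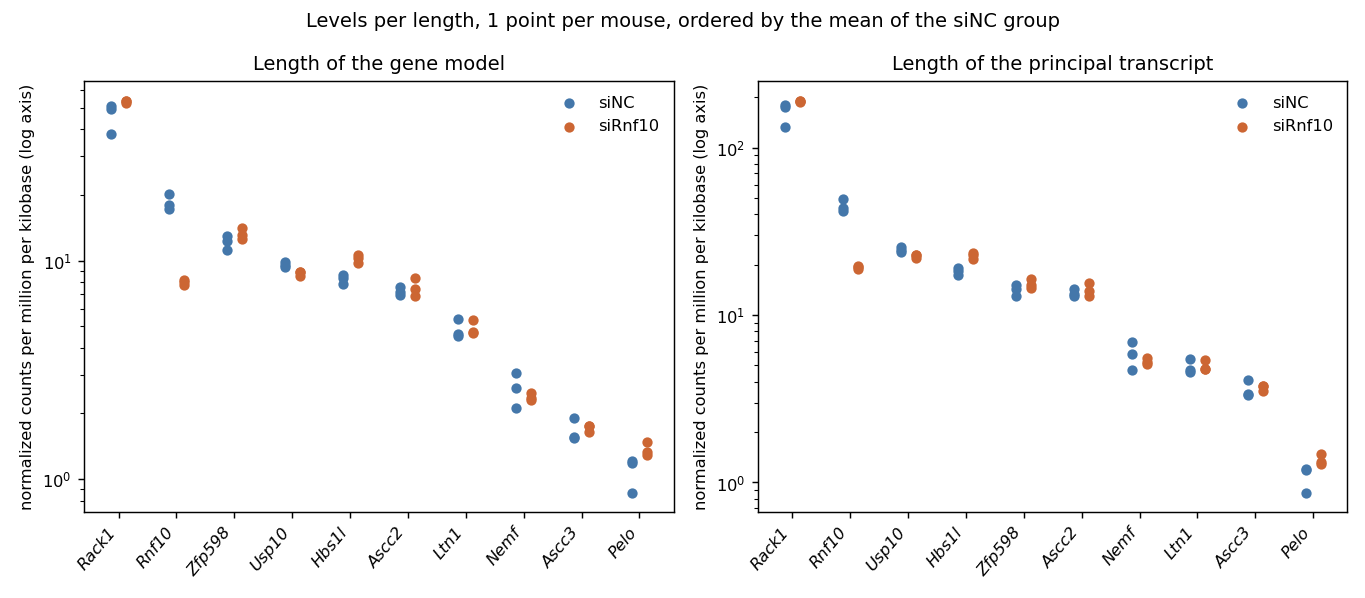
Normalized CPM per kilobase (y axes, log scale) of the 10 genes, with 1 point per mouse, by the length of the gene model (left) or of the principal coding transcript (right), ordered by the GalNAc-siNC mean. By gene model, the treated points of Rnf10 at 7.96 on average lie at the height of Ascc2, below those of Usp10.

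Among the other genes of the pathway, 2 of the 49 listed passed the test, 4.08%, where 14.0% of all tested genes did. Both belong to the complex that blocks new initiation on an mRNA with stalled ribosomes. Gigyf1, a scaffold protein of the GIGYF family, was at 24.8, 29.0 and 24.7 CPM in the controls and at 20.9, 21.1 and 18.0 in the treated mice. It fell by 0.39 on the log2 scale (SE 0.0977, edgeR adjusted p = 0.0128), and by 0.24 with offsets for GC content and length (edgeR adjusted p = 0.0453). Eif4e2, the cap-binding protein of that complex, was at 35.6, 40.05 and 40.7 in the controls and at 48.2, 45.3 and 45.0 in the treated mice. It rose by 0.25 on the log2 scale (SE 0.0775, edgeR adjusted p = 0.0380). For both genes the groups did not overlap, but the calls rest on few mice: Gigyf1 lost its call without GalNAc-siNC mouse 2 (edgeR adjusted p = 0.0547) or GalNAc-siRnf10 mouse 3 (0.102), and Eif4e2 without GalNAc-siRnf10 mouse 1, 2 or 3 (0.196, 0.112 and 0.105).

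The list of these 49 genes had a median log2 fold change of -0.0059, with 23 genes above 0 and 26 below. At an unadjusted p under 0.05 stood 7 of them, against 26.7% of all tested genes. DESeq2 called 2 of the 49 and 13.6% of all tested genes, and limma's voom called 4, adding Cdk5rap3 and Rps20, and 16.6% of all tested genes. Without GalNAc-siNC mouse 1, edgeR called 7 of the 49 and 2864 of 14343 tested genes in all. The groups did not overlap in 16 of the 49, or 32.7%, against 32.8% of all tested genes. The list of collision sensing and initiation block held both calls among its 8 genes, with 3 at an unadjusted p under 0.05, where 26.7% of all tested genes had one. The other one was Gcn1, named here after its values were seen, the collision sensor upstream of the kinase GCN2. It was at 65.8, 83.3 and 66.1 in the controls and 61.0, 61.7 and 60.3 in the treated mice (log2 fold change -0.23, edgeR adjusted p = 0.0827).

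No gene was called by edgeR in the other 7 lists. Of the 8 genes for ubiquitin on the 40S subunit and its removal, 1 had an unadjusted p under 0.05, and the one with the most counts was G3bp2, a stress granule protein that binds USP10, with a log2 fold change of -0.15 (edgeR adjusted p = 0.195), and -0.095 without GalNAc-siNC mouse 1. The disassembly list held Ascc1 and Trip4, a further subunit of the Ascc2 and Ascc3 complex, and neither reached an unadjusted p of 0.05. Trip4 had a log2 fold change of -0.14 (edgeR adjusted p = 0.222), and passed without GalNAc-siNC mouse 2 (-0.21, edgeR adjusted p = 0.0435). Of the 6 rescue and recycling genes and the 8 that extract the chain from the 60S subunit, 0 had an unadjusted p under 0.05. The gene with the most counts of the first was Etf1, the termination factor that reads stop codons, at -0.018 (edgeR adjusted p = 0.899), and at 0.039 without GalNAc-siNC mouse 1. That of the second was Vcp, the ATPase that pulls ubiquitin-marked chains off the ribosome, at -0.061 (edgeR adjusted p = 0.541). DESeq2 and voom called none in these 4 lists.

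UFM1, a small ubiquitin-like protein, is attached to 60S subunits stalled at the endoplasmic reticulum. Of 7 genes of this system, 1 had an unadjusted p under 0.05, namely Cdk5rap3, named here after its values were seen and called by voom (adjusted p = 0.0152) but neither by edgeR (0.0717) nor by DESeq2 (0.0967). With the most counts in this list, Ddrgk1, which anchors the UFM1 ligase to the membrane, had a log2 fold change of 0.11 (edgeR adjusted p = 0.606), which turned to -0.032 without GalNAc-siNC mouse 1. Of 6 genes that decay mRNA on stalled ribosomes, 2 had an unadjusted p under 0.05 and DESeq2 and voom called 0. With the most counts of these 6, Upf1, the helicase of nonsense-mediated decay, had a log2 fold change of -0.087 (edgeR adjusted p = 0.530), and -0.14 without GalNAc-siNC mouse 1.

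The mRNAs of the 40S proteins that RNF10 and ZFP598 mark were counted as well, while the proteins and their ubiquitin were not measured. Rps2, the one with the most counts of the 4 genes, was at 434, 584 and 604 CPM in the controls and at 612, 606 and 607 in the treated mice. As with Rack1, GalNAc-siNC mouse 1 lay below all others. Its log2 fold change was 0.17 (edgeR adjusted p = 0.430), and 0.033 without that mouse. Of the 4 genes, 0 had an unadjusted p under 0.05 by edgeR, DESeq2 called 0 and voom 1, Rps20. Ribosomal protein genes have many processed copies in the genome, so their counts are uncertain.

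**Figure D5:**
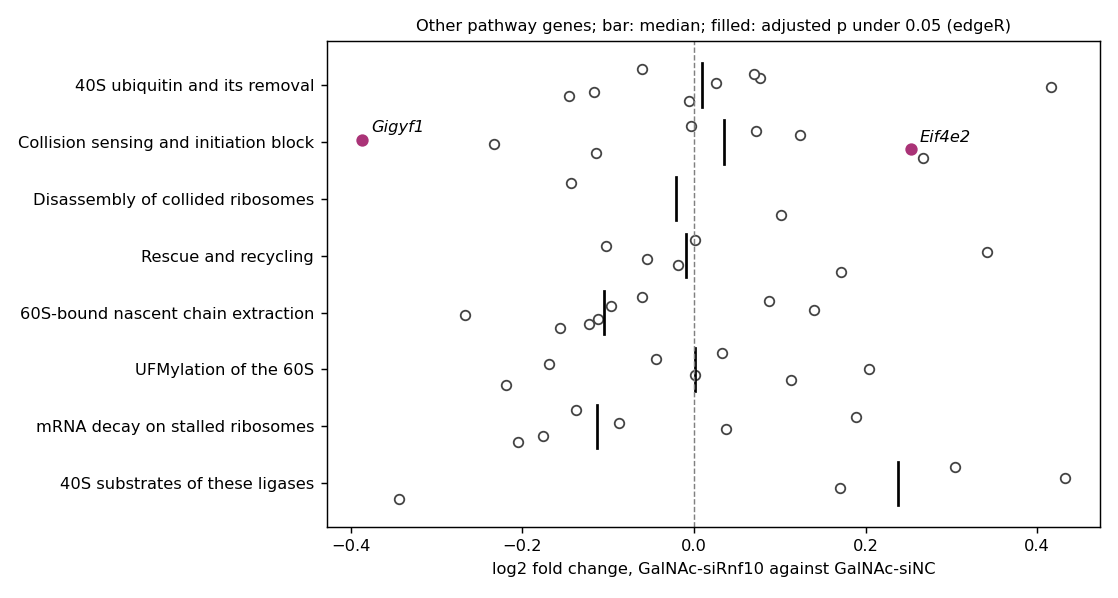
Log2 fold change (x axis) of the 49 other pathway genes by list (y axis), with 1 point per gene, a bar at the median of each list and filled points where the edgeR adjusted p was under 0.05. The 2 filled points are Gigyf1, which fell by 0.39, and Eif4e2 at 0.25, while the medians of the lists lie between -0.11 and 0.034, apart from the 4 genes for 40S proteins at 0.24.

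Across the 6 livers, the levels most like Rnf10 were those of Qsox1 (Pearson r = 0.9992), Gtf3c1 (0.9984) and Lss (0.9983), and the most opposite those of Sgk1 (-0.9995), Phyh (-0.9992) and Gm42047 (-0.9988). The search covered the 10935 genes whose normalized count averaged 50 or more, and the points fall into the treated and control mice, so the values describe genes that separate the groups as Rnf10 does. An absolute r of at least 0.9 was found for 14.4% of the genes searched. Qsox1 was at 730, 790 and 755 CPM in the controls and at 465, 489 and 484 in the treated mice, so that mouse 2 was the highest and mouse 1 the lowest of each group, as for Rnf10. Sgk1 was at 8.98, 8.24 and 8.76 in the controls and at 15.9, 15.3 and 15.7 in the treated mice, in the opposite order. Of the members, Hbs1l (r = -0.965) and Usp10 (0.889) lay farthest from 0 by this measure.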

How the data were processed

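RNA from whole livers was prepared as stranded mRNA libraries and sequenced as paired-end reads of 150 bases. The authors aligned the reads to GRCm38 using HISAT2, and the deposited values are raw counts, not normalized. The HISAT2 version, the counting tool, the annotation release and the strand setting are not given in the sources used here. The deposited table also gives the length of each gene model and 1 column per mouse, matched to the labels by name.

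From these counts, edgeR 4.0.16 in R 4.3.3 was run over the whole table: filterByExpr by group, TMM normalization and a robust quasi-likelihood test with treatment as the only term. P-values were adjusted by Benjamini-Hochberg over all tested genes, and a gene was called at an adjusted p under 0.05. CPM use TMM library sizes. The biological coefficient of variation was 9.28%. Levels between genes are compared per kilobase only. Exact two-sided permutation tests compared the 3 mice of each group. Symbols came from GENCODE (release M21) and RefSeq synonyms, and similar transcripts were sought with BLAST 2.17.0 (at least 95% identity over 150 bases). The script was tested on simulated counts.

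The alternatives were DESeq2 1.42.0, limma 3.58.1 (voom), other normalizations and filters, offsets for GC content and length, a replicate block, and leaving out each mouse. The members and lists were chosen with earlier results of these data known. Named were all members, every called gene of the pathway lists or else the gene of a list with the most counts, and the 3 genes most like and most opposite to Rnf10 among those whose normalized count averaged 50 or more. The labels number separate mice without giving litters or cages. The edgeR p-values set the difference between the groups against the spread between these mice, estimated with the help of all genes.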

Additional observations from a re-analysis of the deposited data

How the results depend on the processing

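The log2 fold change of Rnf10 stayed between -1.27 and -1.07 and past the threshold in all 15 alternatives. Hbs1l stayed between 0.27 and 0.35 and lost its call in 1, as given above. The test called 1965 genes in all, between 1816 and 2471 under the other settings, and 1053 to 2864 with 1 mouse left out, the lowest being 1053, 1128 and 1128 without GalNAc-siRnf10 mouse 1, 2 or 3. Between 1 and 2 members were called with 1 mouse left out, and 3 with no filter, which added Rack1, or with offsets for GC content and length, which added Zfp598. With no filter 2324 of 24912 tested genes were called in all, with the offsets 2471 of 14034 and with voom 2328 of 14046. With the replicate block 1816 of 14046 were called. Of the pathway genes, 4 were called with no filter, 4 with voom and 1 with the replicate block. With 1 mouse left out, 0 to 7 of them were called. Without GalNAc-siNC mouse 1 it was 7, where 2864 of 14343 tested genes were called. Without GalNAc-siRnf10 mouse 3 it was 0, where 1128 of 14491 were called. The cause was not tested.

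Among the fold changes of the named genes, directions turned for 6 genes, whose main log2 fold changes lay between -0.087 and 0.11. Etf1 turned to 0.0044 with voom, and Upf1 to 0.053 with the offsets and 0.054 with offsets and block. With 1 mouse left out, the log2 fold change ranged from -0.012 to 0.12 for Ascc2, -0.020 to 0.14 for Ascc3, -0.041 to 0.11 for Ltn1, -0.032 to 0.19 for Ddrgk1, -0.065 to 0.039 for Etf1 and -0.14 to 0.0077 for Upf1. The depth limits Pelo most, with 40 to 66 counts per library.

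The groups share replicate numbers, but these name different animals. Deviations of mice with the same number correlated across genes by 4.78e-04, 0.046 and -0.044. Mice with different numbers correlated by -0.056 to 0.055. The values thus show no pairing by number, but values near 0 cannot exclude one. With the replicate block, 1816 genes were called and Eif4e2 was not (adjusted p = 0.0605), while Rnf10 and Hbs1l kept their calls, as they did with the offsets and the block together, where Zfp598 was called as well (0.24, adjusted p = 0.0166) and Rps2 too (0.16, adjusted p = 0.0416).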
